A study of Mus musculus with 4 samples.

Results

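RNA-Seq values were examined for 10 genes of the Notch pathway in the urogenital sinus (UGS), the embryonic tissue from which the prostate arises. The genes were the receptors *Notch1*, *Notch2*, *Notch3* and *Notch4*, the ligands *Jag1*, *Jag2* and *Dll1*, the DNA-binding factor *Rbpj*, and the targets *Hes1* and *Hey1*. They were taken by symbol from the deposited table, where all 10 were found among 25819 rows. The study asked how loss of the T-box transcription factor TBX18 alters gene expression in the UGS at E16.5, before prostate budding, and at E18.5, after budding has begun. The 4 libraries came from whole UGS of male mouse embryos that were wild type or *Tbx18*Gfp/Gfp at each of the stages. *Tbx18*Gfp/Gfp, called the mutant from here on, is a null genotype with a GFP knock-in at both copies of *Tbx18*. The labels name no treatment and no strain. Each library held the RNA of 3 embryos pooled together, so each group was 1 library and the spread between embryos was not measured by the sequencing. The study also ran RT-qPCR on individual UGS samples for several genes and reported that it matched the pooled values closely. With 1 library per group there was no replicate check within the sequencing, no test between groups was run, and every difference is a difference between a pair of libraries.

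Notch signalling passes between neighbouring cells. Ligands of the Jagged and Delta families on a cell bind Notch receptors on the cell next to it, the receptor is cut by proteases, and its intracellular part enters the nucleus and joins RBPJ on DNA, where genes of the Hes and Hey families are turned on. In developing urogenital organs Notch receptors and ligands are found in epithelium, stroma and vessels, with *Notch4* best known from endothelium and *Notch3* from the mural cells around vessels and from smooth muscle.

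DNA before a transcription start is shown for *Notch4* and *Dll1*, the members with the largest mutant over wild type ratios at E18.5. It is also shown for *Rbpj*, the member whose level moved least between libraries as deposited, though not relative to the median of all genes. The stretches are RefSeq promoter windows on GRCm38.p6, written 5' to 3' on the strand of the gene and stopped at the first exonic base of the gene met in the window, and capitals mark TGGGAA, the core of the RBPJ recognition sequence. *Notch4* is shown at chr17:34564045-34564267 on the plus strand, *Dll1* at chr17:15376933-15377182 on the minus strand, upstream of the outer of its RefSeq starts, and *Rbpj* at chr5:53590096-53590213 on the plus strand, before an inner RefSeq start that lies within the gene model.
Notch4: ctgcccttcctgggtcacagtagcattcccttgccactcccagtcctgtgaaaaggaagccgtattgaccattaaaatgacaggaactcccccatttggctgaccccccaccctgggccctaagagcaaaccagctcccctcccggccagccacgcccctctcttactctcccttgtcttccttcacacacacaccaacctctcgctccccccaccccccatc
Dll1: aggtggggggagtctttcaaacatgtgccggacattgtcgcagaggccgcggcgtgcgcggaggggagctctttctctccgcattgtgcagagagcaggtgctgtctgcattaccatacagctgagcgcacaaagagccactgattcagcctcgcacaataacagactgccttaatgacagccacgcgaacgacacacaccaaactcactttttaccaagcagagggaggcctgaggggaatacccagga
Rbpj: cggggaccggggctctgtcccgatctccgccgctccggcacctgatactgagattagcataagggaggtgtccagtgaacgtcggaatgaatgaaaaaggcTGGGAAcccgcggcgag

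TGGGAA was searched on both strands, as TGGGAA and TTCCCA, in the 250 bases before each RefSeq start. Of the 10 members, 8 had a window, some of them more than 1, and 2 of their 10 windows held the motif. Both of those windows belonged to *Rbpj* and overlap each other. Over all genes, 21.6% of 32851 windows held it. *Hes1* and *Hey1* had no entry. A match is a description of the letters and not of binding.

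The deposited values are FPKM, reads scaled to the length of the transcript and to the number of mapped reads. This scaling is meant to let levels be set side by side, but it did not make the libraries level here. All rows summed to 375826 FPKM in E18.5 wild type and to 504136 in the E18.5 mutant. The depth, estimated from the FPKM that a single read gave on short single-exon genes, came to 64000000 mapped reads in wild type and 55700000 in the mutant at E16.5, and to 29000000 in wild type and 52400000 in the mutant at E18.5. E18.5 wild type stood apart. It was the shallowest library, it was the lowest of the 4 libraries for 63.7% of the 15023 rows that reached 1 FPKM anywhere, and at E18.5 the mutant over wild type ratio rose with the GC content of the transcript. Over 13012 genes the Spearman correlation of that ratio with GC content was 0.44, against 0.02 over 13478 genes at E16.5. For genes that reached 1 FPKM in both genotypes the log2 ratio of mutant over wild type had a median of 0.01 at the earlier and 0.29 at the later stage. E18.5 ratios are therefore also given relative to that median, and with a fitted trend of the ratio with length and GC content of the transcript removed. *Tbx18* itself was at 3.47, 2.50, 3.16 and 2.93 FPKM, with wild type before mutant and E16.5 before E18.5, a gene-level value that does not tell transcript of the intact locus from transcript of the targeted one and so did not check the genotype labels. Markers of UGS mesenchyme and of urogenital epithelium were all present in each library, with summed levels of 522 to 559 FPKM over 6 genes and 360 to 444 FPKM over 9 genes.

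The receptors were led by *Notch3* and *Notch2*. Listed here and throughout with wild type and then mutant at E16.5, followed by wild type and then mutant at E18.5, *Notch3* was at 19.3, 18.7, 9.60 and 14.6 FPKM. *Notch2*, a receptor used widely in epithelia and mesenchyme, was at 17.0, 17.9, 12.6 and 15.3 FPKM. Both genes had nearly the same level in the 2 E16.5 libraries and their lowest level in E18.5 wild type, where the drop was the deeper for *Notch3*. *Notch1*, the receptor best known from progenitor cells and from endothelium, was at 11.1, 11.0, 7.72 and 8.30 FPKM, so its 2 E18.5 libraries lay close together and below both E16.5 libraries. *Notch4* was by far the lowest receptor, at 2.71, 2.99, 1.02 and 2.31 FPKM. In E18.5 wild type its value stood on about 190 reads, against 773 to 1100 in the other libraries.

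Among the ligands, *Jag1* and *Jag2* were of the same order as *Notch1*, and *Dll1* was far below them. *Jag1*, a ligand expressed in many epithelia and in vessels, was at 11.0, 12.2, 7.93 and 11.2 FPKM. *Jag2* was at 9.76, 8.69, 4.26 and 8.23 FPKM. Both Jagged genes were lowest in E18.5 wild type, and the 3 remaining libraries spanned 1.10-fold for *Jag1* and 1.18-fold for *Jag2*. *Dll1*, a Delta family ligand of progenitor cells, was at 1.87, 1.60, 0.653 and 1.29 FPKM. It was the lowest of the 10 genes in every library and stood on about 63.9 reads in E18.5 wild type, which makes it the least precise of the members.

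*Rbpj* was at 23.2, 22.9, 25.0 and 24.1 FPKM. It was the only member that was not lowest in E18.5 wild type, the lowest library for 63.7% of the rows that reached 1 FPKM anywhere. *Rbpj* was instead at its highest there, and its 4 deposited values were the closest together. Relative to the median of all genes its wild type log2 ratio of E18.5 over E16.5 was 0.44, against -0.10 for *Notch2*. *Hes1*, a transcriptional repressor and target of the pathway, was at 31.6, 31.3, 21.3 and 26.03 FPKM. *Hey1*, a related repressor, was at 8.21, 8.06, 4.997 and 6.81 FPKM. Both targets matched between the genotypes at E16.5 and were lower in each E18.5 library than in either E16.5 library. *Hes1* was the highest member in 3 libraries and *Rbpj* in E18.5 wild type. *Hes1* lay above 84.7% of the rows that reached 1 FPKM in E16.5 wild type, while *Notch4* lay above 15.2% and *Dll1* above 8.87%.

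**Figure D1:**
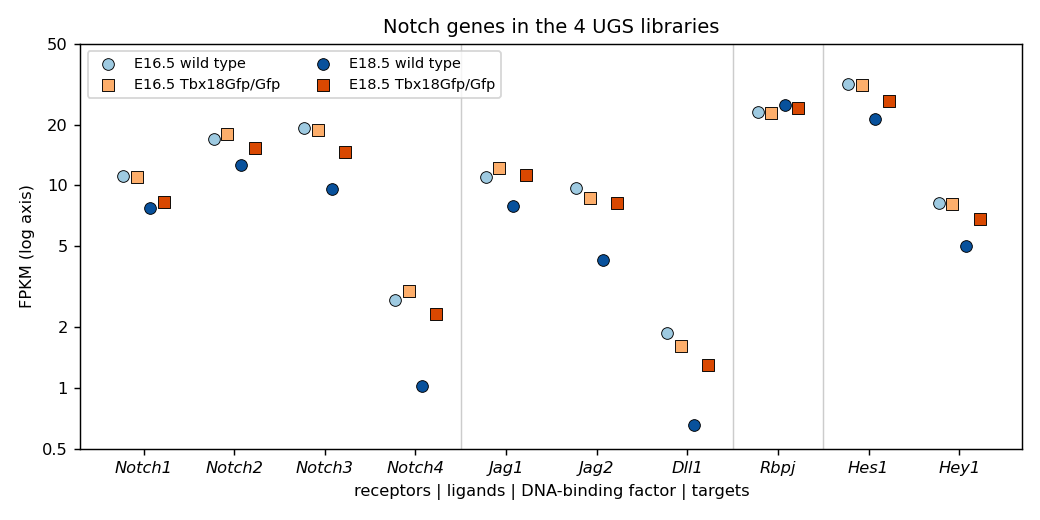
FPKM of the 10 Notch genes on a log axis, 1 point per library, with circles for wild type and squares for Tbx18Gfp/Gfp and pale colours for E16.5. E18.5 wild type is the lowest point for 9 of 10 genes, against 63.7% of the 15023 rows that reached 1 FPKM anywhere. The Rbpj points lie together between 22.9 and 25.0 FPKM.

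The positions in the deposited table, whose genome build is not named in the sources used here and whose coordinates are not those of GRCm38, placed *Notch3* (chr17:32257838-32303797), *Notch4* (chr17:34701240-34725488) and *Dll1* (chr17:15504318-15512787) on chromosome 17. *Notch1* (chr2:26313422-26359342) and *Jag1* (chr2:136907194-136942067) shared chromosome 2, and *Notch2* (chr3:97817461-97954290) and *Hey1* (chr3:8663359-8667038) shared chromosome 3. *Jag2* was on chromosome 12 (chr12:114146801-114167706), *Rbpj* on chromosome 5 (chr5:53947018-54048684) and *Hes1* on chromosome 16 (chr16:30065443-30067882). In the GENCODE annotation of GRCm38, *Notch1*, *Notch3* and *Dll1* share exonic bases with a gene on the opposite strand, 867 of 4219 exonic bases in the case of *Dll1*. The reads were aligned with default options, which do not use the strand, so reads of these partners could not be told apart.

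At E16.5 the 10 genes had nearly the same levels in mutant and wild type UGS. None of the 10 differed by 1.5-fold, against 4.15% of the 14761 genes counted. Genes were counted if they reached 1 FPKM in 1 library or both. The study used 2-fold at both stages and, at this one, also listed genes past 1.5-fold. Here 1.5-fold is a bare ratio without a significance call. The median log2 ratio of mutant over wild type was -0.015 over the members and 0.012 over all genes. The lowest ratio was that of *Dll1*, with a log2 ratio of -0.22 and an approximate 95% interval of -0.44 to 0.00090 from counting error alone. *Jag2* had a log2 ratio of -0.17 with an interval of -0.24 to -0.089. At the other end, *Notch4* had a log2 ratio of 0.15 with an interval of 0.023 to 0.27, and *Jag1* one of 0.14 with an interval of 0.076 to 0.21. *Jag1* and *Jag2* thus lay on opposite sides of 0 under all 5 scalings tried. *Notch1* at -0.014, *Rbpj* at -0.017, *Hes1* at -0.012 and *Hey1* at -0.027 had intervals that included 0. *Notch3* was at -0.045, and *Notch2* at 0.069. The sign of the *Notch1* ratio turned when the length and GC trend was subtracted, to 0.030, and that of *Notch2* when library sums were made equal, to -0.037, while the other 8 genes kept theirs under all 5 scalings.

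At E16.5 endothelial markers were higher in the mutant, as was *Notch4*. *Notch1* at -0.014 and *Notch3* at -0.045, also known from vessels, lay slightly below 0 as deposited. All 12 endothelial genes listed were higher in the mutant, with a median log2 ratio of 0.21 against 0.012 over all genes. Of these 1, *Sox17*, passed 1.5-fold, against 1.44% of all genes. The summed level of the 12 went from 157 FPKM in wild type to 181 in the mutant. Of the 6 smooth muscle markers, 5 were over 1.5-fold lower in the mutant, against 2.72% of all genes, with a median log2 ratio of -1.15 and summed levels of 1072 and 563 FPKM. The 5 skeletal muscle markers counted were also all past 1.5-fold lower, with a median of -1.34. All 5 leukocyte markers counted lay above 0, with a median of 0.22, and so did 5 of the 6 mural markers, with *Abcc9* at -0.24. Below 0 lay 6 of 9 urogenital epithelium markers, with a median of -0.37, and 5 of 6 neuron and glia markers, with a median of -0.24. Of 6 UGS mesenchyme markers, 4 lay above 0 and 2 below, with a median of 0.02. The share of all genes above 0 was not counted. The part of these cell types in the Notch values was not tested. In whole UGS, fewer cells of a type and less RNA per cell cannot be told apart.

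At E18.5 all 3 ligands, *Notch3* and *Notch4* were higher in the mutant library under all 5 scalings, and *Rbpj* was lower under all 5, while the sign of *Notch1*, *Notch2*, *Hes1* and *Hey1* turned under some. The share of all genes that kept their direction under all 5 scalings was not counted for any comparison. A kept direction can therefore not be read as particular to these genes. As deposited, 4 of 10 members passed 1.5-fold upward in the mutant and 0 were lower by that factor, against 33.2% higher and 7.6% lower of the 14733 genes counted. The members' share lay near that of all genes, and their median log2 ratio was 0.47 against 0.31. *Notch4* was the only member past 2-fold, a threshold that 15.1% of all genes passed upward. Relative to the median of all genes 3 members stayed past 1.5-fold, against 19.7% of all genes, and with the length and GC trend subtracted 0 did, against 13.1%.

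*Notch4* was 2.26-fold higher, with a log2 ratio of 1.18 and a counting interval of 0.94 to 1.41. The study also named *Notch4* among its up-regulated genes at E18.5. Its ratio was 0.89 relative to the median and 0.54 with the length and GC trend subtracted, the highest of the members under each of these scalings. *Notch3* was 1.52-fold higher, a log2 ratio of 0.61 with an interval of 0.54 to 0.68, just inside the threshold. It came to 0.32 relative to the median and to 0.094 with the trend subtracted. *Notch2* had a log2 ratio of 0.28, which was -0.010 relative to the median and 0.11 with the trend subtracted, and *Notch1* one of 0.11, which turned to -0.18 and -0.24. The receptors therefore kept the order *Notch4*, *Notch3*, *Notch2*, *Notch1* from the largest ratio to the smallest as deposited and relative to the median, whereas with the trend subtracted *Notch2* lay above *Notch3*.

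*Dll1* was 1.98-fold higher in the E18.5 mutant, a log2 ratio of 0.99 with a wide interval of 0.58 to 1.40. *Jag2* was 1.93-fold higher, at a log2 ratio of 0.95 and an interval of 0.82 to 1.08. *Jag1* was 1.41-fold higher, at 0.50 with an interval of 0.40 to 0.60, and did not pass the threshold. All 3 ligands were higher in the mutant under all 5 scalings, at 0.70, 0.66 and 0.21 relative to the median for *Dll1*, *Jag2* and *Jag1*, and at 0.47, 0.21 and 0.40 with the trend subtracted. The order of *Jag1* and *Jag2* thus changed with the trend.

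*Rbpj* had an E18.5 log2 ratio of -0.050, with an interval of -0.11 to 0.0077. The study listed *Rbpj* among its down-regulated genes at E18.5, whereas the ratio of the deposited values was far short of the study's 2-fold. The reason for this difference was not tested. *Rbpj* was lower in the mutant under all 5 scalings, at -0.34 relative to the median and at -0.018 with the trend subtracted. For the targets, *Hes1* had a ratio of 0.29 with an interval of 0.17 to 0.41, and *Hey1* one of 0.45 with an interval of 0.26 to 0.64. Relative to the median they were at 0.0011 and 0.16, and with the trend subtracted both were lower in the mutant, at -0.20 and -0.047. Neither target passed 1.5-fold under any of these scalings.

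**Figure D2:**
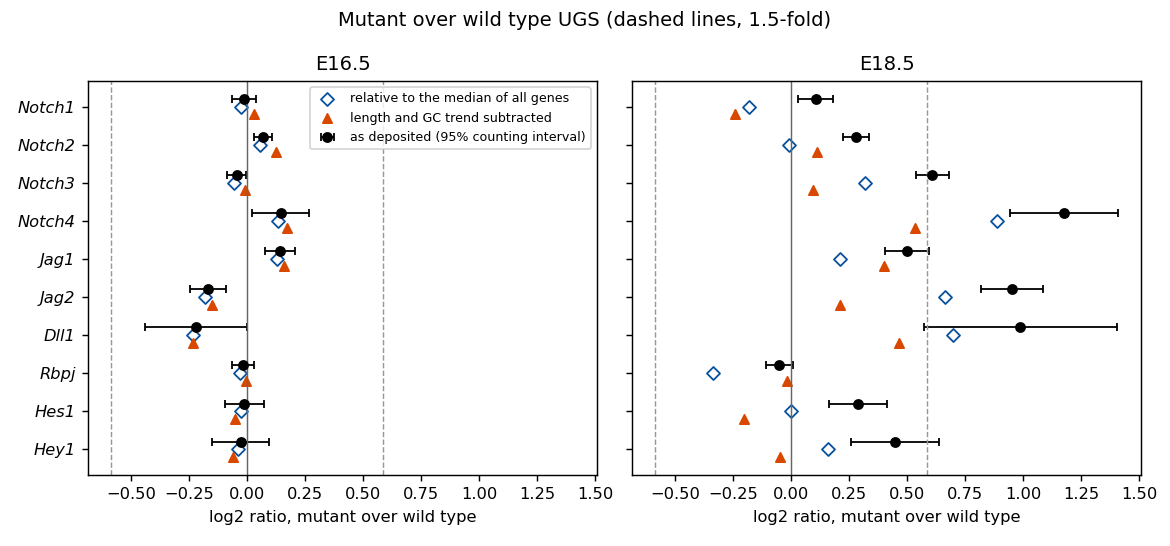
Log2 ratio of Tbx18Gfp/Gfp over wild type for the 10 Notch genes at each stage, as deposited (black, with an approximate 95% interval for counting error only), relative to the median of all genes (diamonds) and with the length and GC trend subtracted (triangles). At E16.5 all points lie within 1.5-fold, and at E18.5 Notch4, Dll1, Jag2 and Notch3 pass it as deposited while 0 genes pass it with the trend subtracted, under which Notch1, Rbpj, Hes1 and Hey1 lie below 0.

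The members with the larger E18.5 ratios were mostly those with GC-rich transcripts. *Jag2*, *Notch4* and *Notch3* had a GC content of 61.9%, 61.2% and 59.6%, *Dll1* one of 54.9%, and *Rbpj* the lowest, 43.7%. *Notch1*, at 57.1%, had a low ratio for its GC content, and *Jag1*, at 48.8%, a high one. Over the 10 members the Spearman correlation of the E18.5 ratio with GC content was 0.62, where the points share their 2 libraries, and at E16.5 it was -0.25. Over all genes at E18.5 the median log2 ratio went from -0.06 in the lowest of 10 equal bins of GC content to 0.82 in the highest. The part of GC content in the members' ratios, beyond the trend subtracted above, was not tested.

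**Figure D3:**
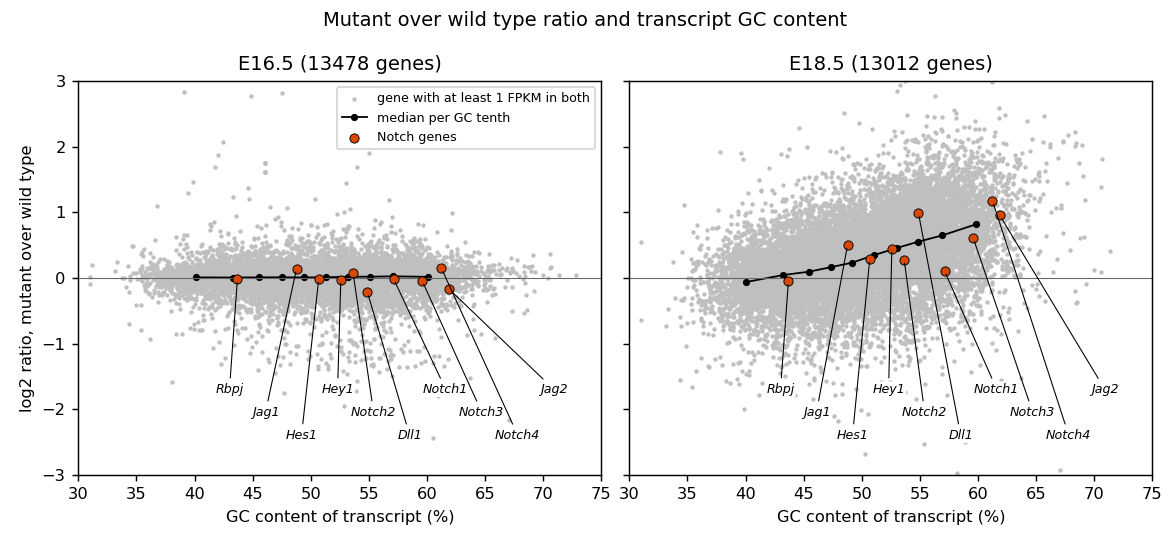
Log2 ratio of Tbx18Gfp/Gfp over wild type against transcript GC content for genes that reached 1 FPKM in both genotypes (grey), with the median in each of 10 equal bins of GC content (black) and the Notch genes (orange), with 2 genes of the left panel and 17 of the right panel outside the axes. At E16.5 the medians stay flat, and at E18.5 they climb to 0.82, with Notch4, Dll1 and Jag1 above the line, Notch1, Notch2 and Notch3 below it, and Rbpj near 0.

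The markers of other cells also differed at E18.5. Of the 12 endothelial genes, 4 were at least 1.5-fold higher and 1 was lower in the mutant, against 33.2% and 7.6% of all genes. Their median log2 ratio was 0.43 and their summed levels were 148 and 171 FPKM in wild type and mutant. With the length and GC trend subtracted 2 were at least 1.5-fold higher and 2 lower, against 13.1% and 14.7% of all genes, with a median of 0.15. *Cldn5* at 1.77 and *Esam* at 1.34 stood with *Notch4*, whereas *Pecam1* at -0.08 and *Cdh5* at -0.19 did not. Of the 6 mural genes, 4 were at least 1.5-fold higher, or 3 with the trend subtracted, with a median of 0.87, or 0.61. Their summed levels were 76.2 and 104 FPKM, and *Pdgfrb* had a log2 ratio of 0.38. All 6 smooth muscle genes were at least 1.5-fold higher, or 4 with the trend subtracted, with a median of 1.43, or 1.02. Their summed levels were 1256 and 3478 FPKM. Of all genes 33.2% were higher by that factor, or 13.1% with the trend subtracted. None of these markers was at 0 in any library, and their part in the Notch ratios was not tested.

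Between the stages, the wild type libraries differed more than the mutant ones, in comparisons that share libraries with those of genotype. From E16.5 to E18.5 in wild type, 9 of 10 members were lower and 5 were lower by 1.5-fold or more, against 35.9% of 14807 genes. The median log2 ratio of E18.5 over E16.5 was -0.64 for the members and -0.35 for all genes. *Dll1* was lower by the most, at a log2 ratio of -1.52, followed by *Notch4* at -1.40, *Jag2* at -1.20, *Notch3* at -1.01 and *Hey1* at -0.72. *Rbpj* was higher, at 0.11. These directions held under all 5 scalings, although with the length and GC trend subtracted only *Dll1* stayed past 1.5-fold, at -0.90, against 12.5% of all genes, and *Notch1* came to -0.0033. The share of all genes whose direction held under all 5 scalings was not counted.

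In the mutant, 0 of 10 members differed by 1.5-fold between the stages, against 4.68% of 14713 genes. The log2 ratios of E18.5 over E16.5 ran from -0.40 for *Notch1* to 0.07 for *Rbpj*, with a median of -0.25 against -0.06 for all genes. *Jag2*, at -0.08, turned to 0.09 with the length and GC trend subtracted, while 8 members were lower at E18.5 and *Rbpj* was higher under all 5 scalings. *Notch1* thus had the lowest stage ratio of the receptors in the mutant. Its counting interval of -0.46 to -0.34 overlapped those of *Notch3* and *Notch4*, so their order was not resolved. In wild type 2 receptors, *Notch3* and *Notch4*, had lower ratios than *Notch1* as deposited. With the trend subtracted *Notch2* was also below it there, at -0.12 against -0.0033. Leaving the E18.5 wild type library aside, the E18.5 mutant differed from E16.5 wild type by less than 1.5-fold for all 10 members, where 6.47% of 14766 genes differed by that much, with log2 ratios from -0.53 for *Dll1* to 0.06 for *Rbpj*, 8 of them below 0.

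Shares within a library do not depend on the scaling between libraries. They are not free of the trend with length and GC content, which was not subtracted from them. The receptors summed to 50.1, 50.6, 31.0 and 40.6 FPKM. *Notch3* was 38.5%, 37.0%, 31.0% and 36.0% of that sum, and *Notch2* 33.98%, 35.3%, 40.8% and 37.8%. *Notch2* therefore stood above *Notch3* in both E18.5 libraries and below it in both E16.5 libraries. The share of *Notch4* was 5.40%, 5.92%, 3.30% and 5.70%, lowest in E18.5 wild type. That of *Notch1* was between 20.5% and 24.9%. The ratio of *Notch3* to *Notch1* was 1.74, 1.70, 1.24 and 1.76, so E18.5 wild type differed from 3 libraries that lay close together.

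The ligands summed to 22.7, 22.5, 12.8 and 20.7 FPKM, between 0.414 and 0.511 of the receptor sum. *Jag1* made up 48.7%, 54.2%, 61.8% and 54.1% of it, *Jag2* 43.03%, 38.7%, 33.2% and 39.7%, and *Dll1* between 5.09% and 8.24%. *Jag1* was thus the leading ligand in every library, by a ratio to *Jag2* of 1.13, 1.40, 1.86 and 1.36. With the length and GC trend subtracted, *Jag1* and *Jag2* had wild type log2 stage ratios of -0.29 and -0.28, against -0.48 and -1.20 as deposited. The higher *Jag1* to *Jag2* ratio in E18.5 than in E16.5 wild type thus did not remain with the trend subtracted. *Hes1* was 1.36, 1.37, 0.852 and 1.08 times the level of *Rbpj*, and *Hey1* 0.354, 0.352, 0.200 and 0.282 times. Both target to *Rbpj* ratios were alike in the 2 E16.5 libraries and lower in both E18.5 libraries. The ratio of *Hes1* to *Hey1* stayed between 3.82 and 4.26.

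**Figure D4:**
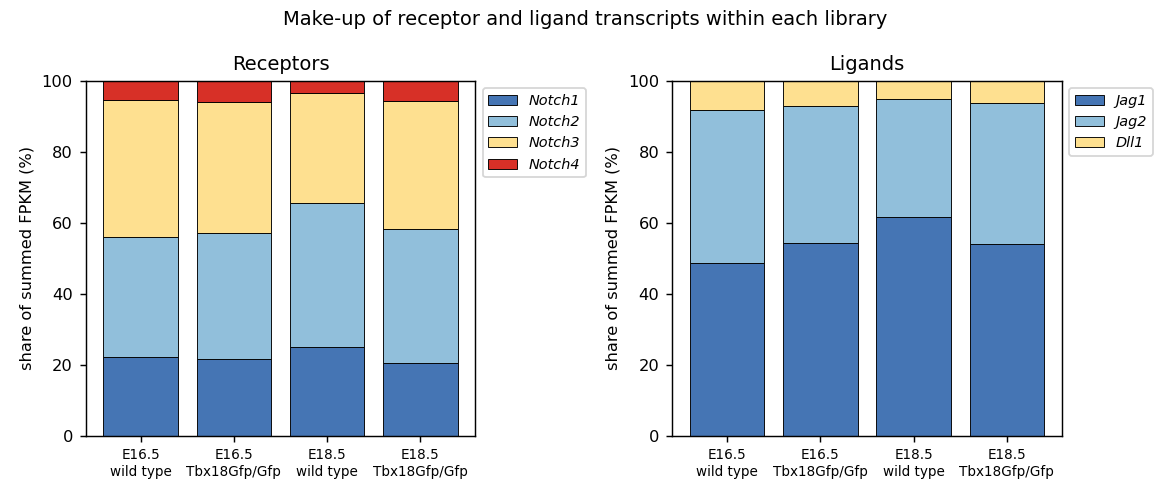
Share of each receptor in the summed FPKM of the 4 Notch receptors (left) and of each ligand in the summed FPKM of Jag1, Jag2 and Dll1 (right), 1 stacked bar per library. In E18.5 wild type the shares of Notch3 (31.0%), Notch4 (3.30%) and Jag2 (33.2%) are at their lowest and those of Notch2 (40.8%) and Jag1 (61.8%) at their highest. No length and GC trend was subtracted.

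A list of 50 further genes of the pathway was summarised in the same way, and all 50 were found. At E16.5, 47 reached 1 FPKM, 0 of them differed by 1.5-fold, and their median log2 ratio of mutant over wild type was -0.013. At E18.5, 14 of 46 passed 1.5-fold upward in the mutant and 2 downward, against 33.2% and 7.6% of all genes, with a median of 0.36 against 0.31. These counts became 10 and 7 when centred on all genes, against 19.7% and 16% of all genes, and 7 and 6 with the length and GC trend subtracted, against 13.1% and 14.7%, so the split into higher and lower depended on the scaling. In wild type, 17 of 47 were lower at E18.5 than at E16.5 by 1.5-fold and 0 were higher, against 35.9% and 6.8% of all genes. In the mutant 0 of 46 differed by that much, against 4.68% of all genes.

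The genes that prepare ligands for signalling were among those higher at E18.5. All 4 genes for ligand endocytosis passed 1.5-fold as deposited, a factor that 33.2% of all genes passed upward. Of these, 3 passed it relative to the median, against 19.7% of all genes, and 3 with the trend subtracted, against 13.1%. *Mib1*, a ubiquitin ligase that ligands need to signal, was at 13.2, 12.3, 7.66 and 11.7 FPKM, with an E18.5 log2 ratio of 0.62, and *Mib2* had one of 1.07. *Neurl1a*, a ubiquitin ligase of the Neuralized family, was at 6.999, 6.48, 2.18 and 7.47 FPKM, with a ratio of 1.77, and *Neurl1b* had one of 1.03. With the length and GC trend subtracted *Mib1* came to 0.82, *Neurl1a* to 0.90, *Neurl1b* to 0.64 and *Mib2* to 0.26. *Dll4*, the Delta ligand of arterial and sprouting endothelium, was at 2.34, 2.62, 0.925 and 2.17 FPKM, a profile like that of *Notch4*, and its E18.5 ratio was 1.23, or 0.68 with the trend subtracted. *Dlk2*, a noncanonical ligand, had a ratio of 1.10, or 0.11 with the trend subtracted. *Dll3* stayed under 1 FPKM in all 4 libraries.

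Among genes that modify and cut the receptors, *Aph1a*, a subunit of gamma-secretase, had the largest E18.5 ratio of the 46 genes counted. It was at 38.7, 41.0, 9.43 and 39.7 FPKM, with a log2 ratio of 2.07, or 1.56 with the trend subtracted. The other 3 libraries lay close together, and E18.5 wild type lay far below them. *Psen2*, a catalytic subunit of the same complex, had a ratio of 0.83, and *Furin*, which cleaves the receptor precursor, one of 0.95, against 0.18 and 0.32 with the trend subtracted. *Mfng*, a Fringe glycosyltransferase, had a ratio of 1.74 and *Pofut1*, which adds fucose to the receptors, one of 1.03, against 0.92 and 0.80. *Numbl* and *Dtx2*, which act on receptor turnover and signalling, had ratios of 0.78 and 0.87, against -0.19 and 0.06. Other genes of these groups lay below 0, among them *Psenen*, a further gamma-secretase subunit, at -0.48 and *Rfng*, a further Fringe, at -0.33, and with the trend subtracted both were over 1.5-fold lower, at -1.13 and -1.21.

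In the nucleus the genes lay on both sides of 0. *Maml3*, a coactivator of the Mastermind family, was at 5.54, 5.05, 6.37 and 3.95 FPKM, with an E18.5 log2 ratio of -0.69. *Ncor1*, a corepressor, was at 22.5, 21.7, 32.3 and 20.96 FPKM, with a ratio of -0.63. Both stayed below 0 with the trend subtracted, at -0.85 and -0.58. None of the 7 genes of the nuclear complex, *Rbpj* included, and none of the 5 corepressors was 1.5-fold higher as deposited, against 33.2% of all genes, and 1 of each list was lower, against 7.6%. Of the genes of these lists that did not pass, *Maml1* at 0.33, *Kat2b* at 0.49, *Kdm5a* at 0.35 and *Hdac1* at 0.37 lay above 0, and *Maml2* at -0.50 and *Ep300* at -0.46 below it. Of the further targets, *Hes6* passed 1.5-fold, with a ratio of 1.22, or 0.25 with the trend subtracted, while *Hes5* and *Hes7* were under 1 FPKM in all 4 libraries.

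**Figure D5:**
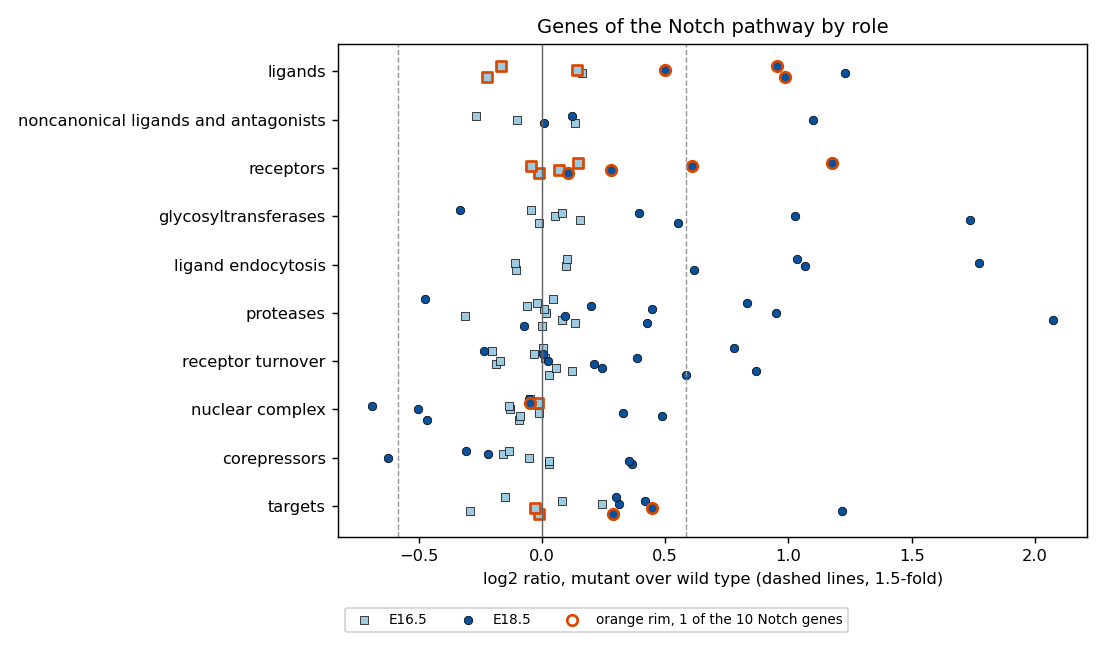
Log2 ratio of Tbx18Gfp/Gfp over wild type, as deposited, for genes of the Notch pathway grouped by role, with squares for E16.5, circles for E18.5 and orange rims for the 10 Notch genes. At E16.5 0 genes pass 1.5-fold, against 4.15% of all genes. At E18.5 the points of ligands and of ligand endocytosis lie to the right, while those of the nuclear complex lie on both sides of 0. That split shifts with scaling, since the E18.5 median of all genes is 0.29.

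The 3 members with the widest range over the libraries were *Notch4*, *Dll1* and *Jag2*, whose log2 levels spanned 1.55, 1.52 and 1.20. Rows most like them were found among 13635 rows with at least 1 FPKM in all 4 libraries, by the root mean square difference of log2 levels centred on their mean over the 4 libraries. For *Notch4* these were *Lrfn3* at 0.020, *Sumf2* at 0.020 and *Capg* at 0.025, for *Dll1* *Shd* at 0.030, *Dpysl4* at 0.045 and *Dbndd1* at 0.046, and for *Jag2* *Hhat* at 0.017, *Pdlim4* at 0.018 and *Srebf2* at 0.019. Such profiles were common over only 4 libraries, with 240, 63 and 597 rows within 0.1 of *Notch4*, *Dll1* and *Jag2*.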

How the data were processed

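RNA was measured in whole male UGS by RNA-Seq in 4 libraries, each pooled from 3 embryos. The authors made stranded mRNA libraries, read them single-end, and aligned them with TopHat2 2.1.0 at default options. CASAVA 1.8.2 and Trimmomatic 0.30 are named in the submitters' processing notes. The values were deposited as FPKM from Cufflinks 2.2.1, with no further scaling stated, and the genome build is not given in the sources used here. Groups came from the stage and genotype labels.

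Ratios were log2 of FPKM without a pseudocount, for genes that reached 1 FPKM in 1 library or both, counted at 1.5-fold. With 1 library per group no test was run. Depth was estimated from the single-read FPKM of 15 to 27 olfactory receptor genes per library, and read numbers and intervals (exact binomial, 95%) follow from it and cover counting error only. Transcript length and GC content came from GENCODE M21 (GRCm38) by symbol for 93.7% of 15023 expressed rows, and a lowess trend (span 0.3) of the ratio on length and then GC content was subtracted as an alternative. Other scalings were equal library sums, centring on the median and the 75th percentile. *Poglut1*, *Neurl1b* and *Adgre1* were matched through older symbols. Named genes were all 10 members, pathway genes from a list that passed 1.5-fold between genotypes, and the 3 rows most like each of 3 members. Members and lists were chosen with earlier results of these data known. Marker genes named beside results, and pathway genes named without passing 1.5-fold as deposited, were picked after their values were seen. The steps were tested on simulated data. The tools were statsmodels 0.14.6, scipy 1.17.1, matplotlib 3.10.9, pandas 2.3.3 and numpy 2.4.6 under Python 3.11.15.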

Additional observations from a re-analysis of the deposited data

Results flagged for a closer look

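For 6 of the 10 genes the mutant over wild type ratio lay below 0 at E16.5 and above 0 at E18.5, as deposited. The same was true of 29.7% of the 14471 genes counted at both stages. Centred on the median of all genes it held for 5 members, without *Notch1*, against 22.9% of genes, and with the length and GC trend subtracted for 3, *Notch3*, *Jag2* and *Dll1*, against 23% of genes. With 1 library per group these differences between the stages were not tested. The E18.5 log2 ratio exceeded the E16.5 one by 1.21 for *Dll1* (-0.22 and 0.99), by 1.12 for *Jag2* (-0.17 and 0.95) and by 0.65 for *Notch3* (-0.045 and 0.61). The difference was 0.47 for *Hey1* (-0.027 and 0.45), 0.30 for *Hes1* (-0.012 and 0.29) and 0.12 for *Notch1* (-0.014 and 0.11). With the length and GC trend subtracted the E18.5 ratio was below 0 for *Notch1*, *Hes1* and *Hey1*, at -0.24, -0.20 and -0.047, and the E16.5 ratio of *Notch1* was above 0, at 0.030.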

How the results depend on the processing

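At E16.5 and between the stages in the mutant, 0 of 10 members passed 1.5-fold as deposited and under each of the 10 alternatives. At E18.5 the 4 members higher in the mutant became 1 with library sums made equal, 0 with the length and GC trend subtracted, 2 with a pseudocount of 1, 2 with at least 5 FPKM in either library, which left 8 members, and 1 at 2-fold. Between the stages in wild type the 5 lower members became 1 with the trend subtracted and 3 with at least 5 FPKM. The other counts stayed within 1.5 times the reported one. Of the ratios of single genes, 40 moved beyond their counting interval and 48 did not at E18.5, against 8 and 80 at E16.5. The cause was not tested, apart from the fewer genes and the higher threshold that those alternatives set themselves. Depth limits *Dll1* and *Notch4* most. No paired analysis was possible because each group was 1 pooled library and the labels carry no replicate numbers, and no library could be left out for the same reason.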
